A study of Mus musculus with 2 samples.

Results

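Liver from mouse embryos of strain B6NCrl at 11.5 days of development was profiled by total RNA-seq, and the 33 genes described here are markers and working parts of the macrophages of the fetal liver. They were chosen by name, from a list of macrophage genes, and all 33 were found among 43346 mouse genes of the deposited tables. The series holds 2 libraries, which its labels call biological replicates, of 1 group, with no treatment, genotype or control to compare. Replicate 1 came from a pool of 109 embryos and replicate 2 from a pool of unstated size, each of both sexes, and 10 ng of RNA went into each library. The embryos' livers were whole, so all cell types of the organ are mixed, and levels within a library and differences between the 2 pools are what can be described.

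Macrophages reach the fetal liver from early blood progenitors and become its resident phagocytes, the later Kupffer cells. At this stage they sit at the centre of erythroblastic islands, where young red cells cling to them, and they engulf the nuclei that red cells expel. Surface receptors recognise dying cells, adaptor proteins pass the signal on, and lysosomal enzymes digest what was taken up. The transcription factor PU.1 directs their development.

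Depth was similar in the libraries, with 34344230 estimated counts in replicate 1 and 31477397 in replicate 2, and added control RNAs held 14.6% and 11.1% of all TPM. TPM, a measure of transcript abundance, is corrected for transcript length and may be compared between genes. Where a pair of values is given, replicate 1 comes first. With 2 libraries no p-value is given, and spread between them is the spread between 2 pools and their preparations. In such bulk tissue, fewer cells of a type and less RNA per cell cannot be told apart.

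Most of the macrophage genes were present. A gene counted as detected if each library gave it at least 1 TPM, and 28 of 33 were, whereas 56.6% of all 21474 protein-coding genes reached that level. That share is the background for every count of detected genes given below. The members' median was 5.77 TPM in replicate 1 and 7.91 TPM in replicate 2, beside 2.82 and 2.87 TPM over protein-coding genes. These medians fell on different genes, Adgre1 and Mrc1, and do not show a shift between the pools. In the 31 members averaging at least 20 counts, the median log2 ratio of TPM, replicate 1 over replicate 2, was -0.01. The levels spanned a wide range, since 14 members exceeded 10 TPM in both libraries and 4 stayed under 1 TPM in both. Together the 33 genes made up 0.110% and 0.113% of mouse gene TPM, and the cathepsins Ctsd and Ctsb alone supplied 42.5% and 45.5% of the members' sum.

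**Figure D1:**
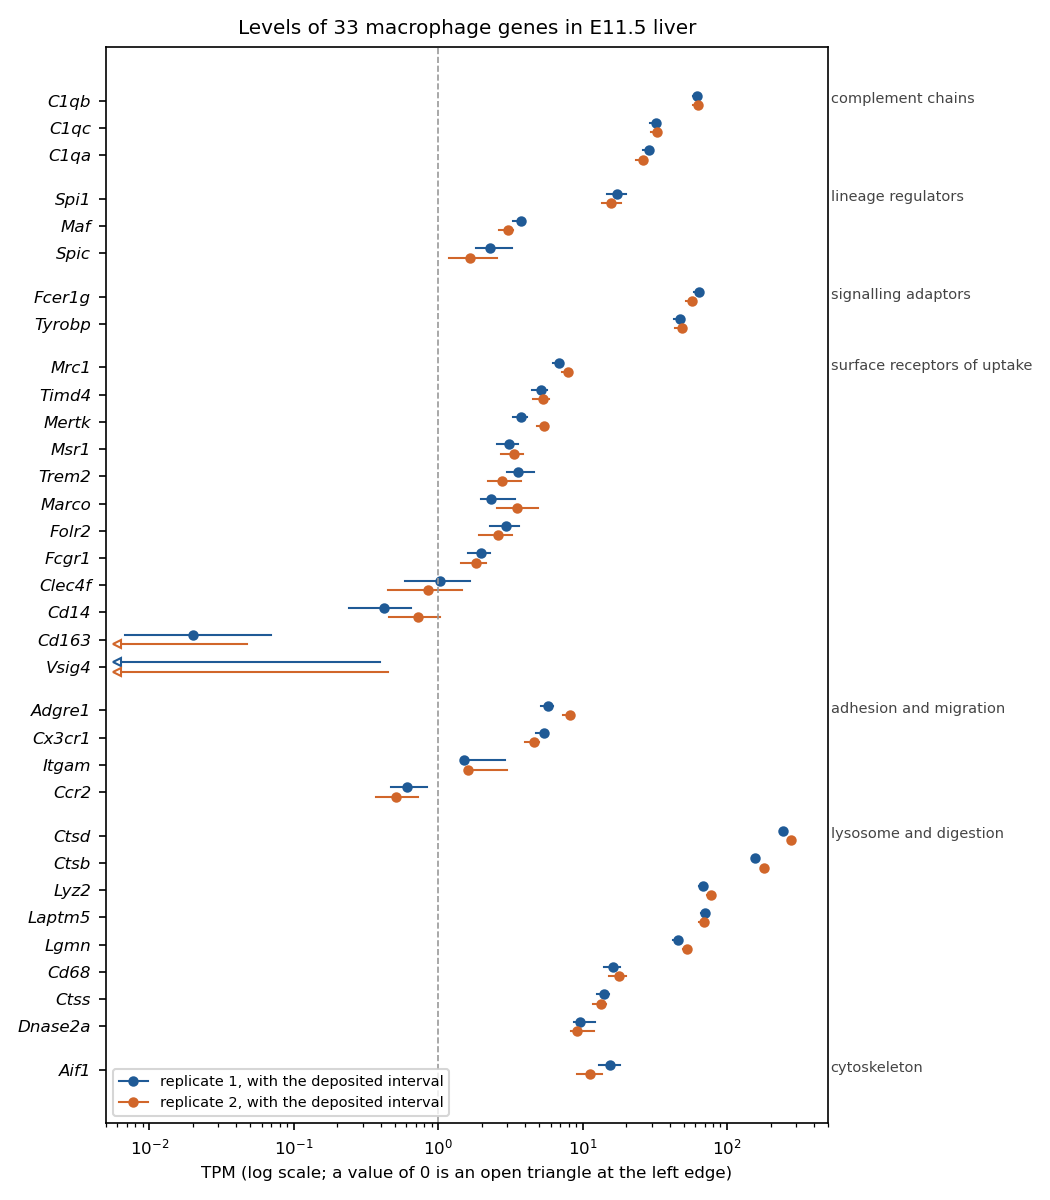
Level of each of the 33 genes in TPM on a log axis, grouped by role; points are the 2 libraries, horizontal lines the deposited credibility intervals and the dashed line 1 TPM. Complement chains, adaptors and lysosomal genes lie between about 9 and 276 TPM, while the uptake receptors lie at 7.91 TPM or below and reach 0.

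The complement chains were among the most abundant members. C1qa, C1qb and C1qc encode the A, B and C chains that assemble into C1q, which binds antibody complexes and dying cells, and macrophages are its main source in many tissues. C1qb stood at 62.0 and 62.5 TPM (62.3 ± 0.368, SD, n = 2), from 1583 and 1393 estimated counts. C1qc followed at 32.0 and 32.5 TPM (32.3 ± 0.318, SD, n = 2) and C1qa at 28.9 and 26.1 TPM (27.5 ± 1.92, SD, n = 2). The B chain was thus 1.93-fold above C and 2.26-fold above A, and the deposited intervals did not overlap in either library. C1qc was above C1qa in both libraries, but their intervals overlapped in replicate 1, so the pair was not counted as separated. The 3 genes lie side by side on the minus strand of chromosome 4 (GRCm38), C1qb at 136880129 to 136886187, C1qc at 136889804 to 136893065 and C1qa at 136895917 to 136898803.

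Start regions of the members were searched for the short DNA element of PU.1, the factor encoded by Spi1. RefSeq windows on GRCm38.p6, from 250 bases before to 50 after a start site, were matched for 25 of the 33 genes. Those without one were Adgre1, C1qa, Cd14, Ctsb, Maf, Msr1, Spi1 and Tyrobp. The core AGGAAGT, on either strand, was found for 8 of these 25 genes (32%), namely C1qb, C1qc, Spic, Mrc1, Folr2, Fcgr1, Lyz2 and Ctss. Over all 27025 genes with a window the share was 10.7%, and over all 32851 windows 9.35%. The longer form GAGGAAGT, which contains the core, was found for C1qc and Ctss only, 2 of 25 genes (8%) beside 3.69% of all genes. A match is a description of the letters and not evidence of binding. Upstream sequences are shown for an abundant member, C1qb, for 2 scarce ones, Fcgr1 and Spic, and for Vsig4, which had no reads, each 5′ to 3′ on the gene's strand. Capitals mark the core, read here from its opposite strand. The windows shown held no annotated exon. The 3 others lie upstream of their gene's annotated span, while that of Spic falls within an intron of its longer annotated span.
C1qb, chr4:136886201-136886450, minus strand: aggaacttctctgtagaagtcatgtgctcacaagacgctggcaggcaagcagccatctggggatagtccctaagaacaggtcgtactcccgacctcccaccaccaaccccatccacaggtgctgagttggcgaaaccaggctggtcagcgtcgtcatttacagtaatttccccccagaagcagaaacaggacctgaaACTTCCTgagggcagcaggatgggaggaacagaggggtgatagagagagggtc
Fcgr1, chr3:96293970-96294219, minus strand: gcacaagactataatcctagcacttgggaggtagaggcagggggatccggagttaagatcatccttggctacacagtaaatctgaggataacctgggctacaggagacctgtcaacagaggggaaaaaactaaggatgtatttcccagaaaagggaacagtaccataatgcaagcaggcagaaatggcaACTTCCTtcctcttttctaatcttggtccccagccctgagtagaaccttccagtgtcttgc
Spic, chr10:88683024-88683273, minus strand: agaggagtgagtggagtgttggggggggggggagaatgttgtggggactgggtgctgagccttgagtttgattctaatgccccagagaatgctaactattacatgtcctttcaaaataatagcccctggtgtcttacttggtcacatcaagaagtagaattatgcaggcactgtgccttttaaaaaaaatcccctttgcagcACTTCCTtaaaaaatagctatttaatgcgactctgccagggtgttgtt
Vsig4, chrX:96293439-96293688, minus strand: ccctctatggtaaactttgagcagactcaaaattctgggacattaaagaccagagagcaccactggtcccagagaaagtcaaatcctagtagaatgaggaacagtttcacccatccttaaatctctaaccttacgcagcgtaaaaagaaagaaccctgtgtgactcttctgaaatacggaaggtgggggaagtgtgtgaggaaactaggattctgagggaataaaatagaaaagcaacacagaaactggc
The core lies 53 to 47 bases before the start in C1qb, 61 to 55 in Fcgr1 and 48 to 42 in Spic, and these letters are not in the Vsig4 window. Genes with the core therefore ranged in level from Lyz2, among the highest members, to Fcgr1 and Spic, among the lowest detected.

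Of the 3 transcription factors, Spi1 was the highest. Spi1, which encodes PU.1, stood at 17.3 and 15.7 TPM (16.5 ± 1.14, SD, n = 2). Spic, a related ETS factor of iron-handling macrophages, stood at 2.29 and 1.65 TPM, so Spi1 was 8.09-fold higher. Maf, the factor c-MAF of resident macrophages, stood at 3.72 and 3.03 TPM. The level of Maf lay between those of Spi1 and Spic in both libraries. In a list of 9 other factors of macrophages, all 9 were detected, beside 56.6% of protein-coding genes, with a median of 11.2 and 11.6 TPM. That list was led by Id3 (153 and 154 TPM), Id1 (43.0 and 42.4 TPM) and Zeb2 (24.6 and 26.2 TPM), which many other cell types also express.

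Both signalling adaptors were well above the member receptor compared with each. Tyrobp encodes DAP12, the partner of TREM2 and other receptors, and stood at 47.6 and 48.9 TPM. Trem2, a lipid-sensing receptor, reached 3.60 and 2.78 TPM, which put Tyrobp 14.8-fold above it. Fcer1g, the shared gamma chain of Fc receptors, stood at 63.8 and 57.1 TPM, and Fcgr1, the high-affinity receptor for IgG, at 1.98 and 1.82 TPM. That gap was 30.2-fold. Both adaptors also serve receptors of other blood cells, and Fcgr3, a low-affinity IgG receptor that uses the same chain, stood at 22.7 and 23.1 TPM. Fcer1g was 1.25-fold above Tyrobp in a comparison whose intervals did not overlap in either library.

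Of the receptors of uptake 8 of 12 were detected, beside 56.6% of protein-coding genes. Their median of 2.64 and 2.68 TPM was close to the protein-coding median of 2.82 and 2.87 TPM. Highest was Mrc1, the mannose receptor, at 6.85 and 7.91 TPM. Sinusoidal endothelium also expresses it, and the endothelial scavenger receptor Stab1 was 3.58-fold higher on average. That fold differed between the libraries, with log2 ratios of Mrc1 over Stab1 of -2.22 and -1.47. Stab1 stood at 32.2 and 22.0 TPM from 1471 and 1193 counts. Timd4, a phosphatidylserine receptor of resident macrophages, stood at 5.15 and 5.29 TPM. The values of Timd4 thus nearly coincided in the 2 pools. Mertk, a receptor for dying cells, stood at 3.75 and 5.39 TPM, with the lower value in replicate 1. Its relative Axl was 5.79-fold higher, at 25.2 and 27.8 TPM. Mfge8, a bridging protein that binds integrins instead, was the highest of these genes at 64.1 and 73.4 TPM. Of the ligands that bridge these receptors to dying cells, Pros1 (18.5 and 24.8 TPM) was 5.95-fold above Gas6 (4.10 and 3.01 TPM). Both ligands and Axl are also made by cells other than macrophages.

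The scavenger receptors Msr1 and Marco were at a similar level. Msr1 stood at 3.09 and 3.33 TPM. Marco stood at 2.33 and 3.54 TPM, above Msr1 in replicate 2 only, so the pair had no order. Folr2, the folate receptor beta of resident macrophages, was at 2.96 and 2.58 TPM. An annotated antisense gene, Gm10602, shares 63.1% of the exonic bases of Folr2. Gm10602 itself was at 0.730 and 1.07 TPM. Whether counting used strand is not stated, so the level of Folr2 is uncertain.

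Several receptors known from mature Kupffer cells were near or below 1 TPM, while Timd4 and Marco were above it in both libraries. Clec4f, a lectin of Kupffer cells, had 40 and 28 counts (1.03 and 0.850 TPM), on either side of 1 TPM. A processed transcript of 606 bases held 46.8 and 48.7% of that TPM from 6.33 and 4.72 counts. The coding model of Clec4f stood at 0.550 and 0.440 TPM, under 1 TPM in both libraries. On the TPM of all models, Timd4 was 5.13-fold above Clec4f, with 0.1 TPM added to both genes. Adding 1 TPM instead lowered the log2 ratio from 2.36 to 1.68. Vsig4, a complement receptor of Kupffer cells, had no read assigned in either pool. By counting alone, a count of 0 leaves room for 0.141 TPM (replicate 1) or 0.162 TPM (replicate 2), taking 3 counts as the limit. The deposited intervals of Vsig4 are wider and reach 0.394 and 0.451 TPM. Cd163, the receptor for haemoglobin bound to haptoglobin, had 2 counts in replicate 1 and 0 in replicate 2. The corresponding limit for Cd163 in replicate 2 was 0.0306 TPM, and its deposited interval reaches 0.0476 TPM. Cd14, a co-receptor for bacterial lipopolysaccharide, had 16 and 24 counts (0.420 and 0.720 TPM). The limits from 3 counts cover counting error only, since reads are not independent molecules. Other genes of mature Kupffer cells were present, as Clec1b stood at 30.6 and 31.7 TPM, Nr1h3 at 11.2 and 9.84 TPM and Cd5l at 2.42 and 3.05 TPM. Clec1b is also a platelet and megakaryocyte gene, and Nr1h3 is expressed in hepatocytes.

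Among adhesion and migration genes, the chemokine receptor Cx3cr1 exceeded Ccr2. Adgre1, which encodes the macrophage antigen F4/80, stood at 5.77 and 8.16 TPM (6.97 ± 1.69, SD, n = 2), with the higher value in replicate 2. Cx3cr1, the fractalkine receptor of early macrophages, stood at 5.38 and 4.6 TPM. Ccr2, the chemokine receptor of monocytes, was under the detection level at 0.610 and 0.510 TPM. Cx3cr1 was 7.71-fold above Ccr2 in both libraries alike, with 0.1 TPM added to both genes. At this low level of Ccr2 the fold depends on that amount. Adding 1 TPM instead lowered the log2 ratio from 2.95 to 1.94. The ligand of Cx3cr1, Cx3cl1, was at 0.530 and 0.430 TPM, and of the Ccr2 ligands Ccl2 was the highest at 1.04 and 1.46 TPM. Itgam, the CD11b integrin chain of myeloid cells, stood at 1.51 and 1.61 TPM, 4.20-fold below Adgre1. Its partner chain Itgb2, which pairs with other integrin chains too, was 8.95-fold above Itgam. Both gaps shrank on the deposited posterior means, an alternative estimate of TPM, which put Itgam at 2.12 and 2.28 TPM. The log2 ratio fell from 2.07 to 1.57 for Adgre1 over Itgam and from 3.16 to 2.71 for Itgb2 over Itgam. Aif1, the actin-binding protein IBA1, stood at 15.5 and 11.3 TPM.

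The receptor Csf1r, on which macrophages depend for survival, was at 17.8 and 22.1 TPM, 2.87-fold above Adgre1. Of its ligands, Csf1 stood at 8.09 and 8.56 TPM and Il34 had 3 counts in each library. Receptor chains of related growth factors were also detected, with Csf2ra at 9.78 and 9.13 TPM, Csf2rb at 6.58 and 5.96 TPM and Csf3r at 2.40 and 1.91 TPM.

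Lysosomal genes were the most abundant role by median, with all 8 detected, beside 56.6% of protein-coding genes. Their median was 57.0 and 61.0 TPM, not far above the 55.7 and 53.0 TPM of the 2 signalling adaptors. Ctsd, an aspartic protease, stood at 243 and 276 TPM (260 ± 23.2, SD, n = 2), above 97.7% and 97.8% of protein-coding genes. Ctsb, a cysteine protease, stood at 156 and 181 TPM (169 ± 17.8, SD, n = 2). Both are expressed by most cell types, so their levels cannot be assigned to macrophages. Ctsb also shares 774 of its 6051 exonic bases with Fdft1 on the opposite strand, which had 3674 and 3484 counts. Without a stated strand setting, reads of that stretch cannot be told apart. Ctss, a cathepsin largely of myeloid and antigen-presenting cells, stood at 14.1 and 13.4 TPM, 12.2-fold below Ctsb. Lgmn, the asparagine-cutting legumain, was at 45.4 and 53.0 TPM. Lyz2, lysozyme of macrophages and granulocytes, was at 68.5 and 77.6 TPM. Its near-identical relative Lyz1 had 0 and 1.02 estimated counts, and reads shared between the copies make that split uncertain. Laptm5, a lysosomal membrane protein of blood cells, was at 70.1 and 69.0 TPM, and Cd68, the classical lysosomal marker of macrophages, at 16.3 and 18.0 TPM. Dnase2a, the enzyme that digests the DNA of engulfed nuclei, was at 9.61 and 9.21 TPM, the lowest of the 8.

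The Ctsd window was the only one of the 25 with the core of the lysosomal gene element known as CLEAR, TCACGTGA, which reads the same on both strands. Among all genes with a window, 1.12% had it. These 30 bases are shown because they hold that element in the most abundant member. They overlap an annotated exon and lie 110 to 81 bases before the RefSeq start, with the core in capitals.
Ctsd, chr7:142387908-142387937, minus strand: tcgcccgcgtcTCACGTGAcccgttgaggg
The wider element CACGTG, which is contained in the core, was present for Ctsd and Lgmn, 2 of 25 genes (8%) beside 8.09% of all genes. That share of the members was near the background.

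Ordered by mean TPM, neighbouring members were mostly too close to separate. Of 32 neighbouring pairs, 6 kept their order in both libraries with intervals that overlapped in neither. These steps were Ctsd over Ctsb, Ctsb over Lyz2, Laptm5 over C1qb, Tyrobp over C1qc, C1qa over Cd68, and Ccr2 over Cd163. No step between Cd68, at 17.1 TPM on average, and Ccr2, at 0.560 TPM, was separated in this way. Of 23 pairs of related genes, 21 were ordered. The other 2 fell short of that rule. C1qc was above C1qa in both libraries, but with overlapping intervals in replicate 1. Msr1 and Marco changed places between the libraries.

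**Figure D2:**
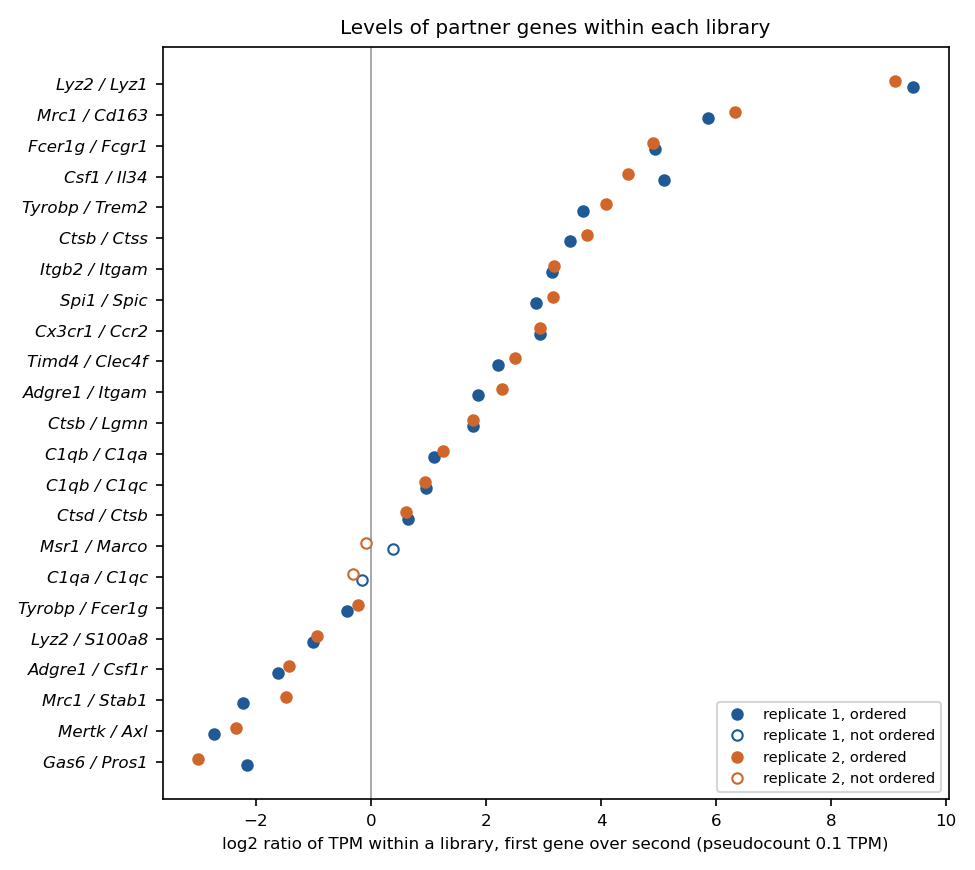
Log2 ratio of TPM, first gene over second, for 23 pairs of related genes in each library. Filled points are pairs with the same order and separate intervals in both libraries. Open points are the 2 pairs that do not meet both conditions. The ratios of the 2 libraries lie close together beside the spread over pairs, which runs from -2.57 for Gas6 over Pros1 to 9.27 for Lyz2 over Lyz1. With Lyz1 at 0 and 0.04 TPM, that upper end depends on the pseudocount of 0.1 TPM, and was 6.18 with a pseudocount of 1 TPM.

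Markers of other cell types were present too, and several members are shared with them. The counts of detected markers, those of endothelium, dendritic cells and microglia included, stand beside 56.6% of protein-coding genes. Of macrophage markers, Adgre1, Csf1r, Fcgr1, C1qa, C1qb, C1qc, Mertk and Cd68 were detected, but all of them except Csf1r are members, so they are no independent check of the label. The macrophage receptors Clec4f, Cd14, Cd163 and Vsig4 were not detected. Of 9 neutrophil genes 8 were detected, with a summed level of 437 and 478 TPM, while Ly6g, a marker of mature neutrophils, had 0 counts in both libraries. Mpo, the granule enzyme myeloperoxidase, led that sum at 146 and 167 TPM, with S100a8 at 138 and 148 TPM and S100a9 at 72.6 and 75.1 TPM. S100a8, a calcium-binding protein of granulocytes, was 1.96-fold above Lyz2. Granulocytes and their precursors also express Lyz2, Itgam, Tyrobp, Fcer1g and Laptm5, and their part in these levels was not tested. Of 6 monocyte genes 3 were detected, with a sum of 167 and 173 TPM, of which Fn1 (134 and 136 TPM), also a product of liver and connective tissue cells, made up the most. Plac8 (26.2 and 27.3 TPM) and F13a1 (5.60 and 7.33 TPM) were the other monocyte genes detected. The monocyte genes Ly6c2 (0.700 and 0.880 TPM) and Chil3 (0 counts in both) were under the detection level.

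The sinusoidal endothelial genes were all 8 detected, with a sum of 292 and 283 TPM, and such cells share Mrc1 with macrophages. Egfl7, a secreted factor of endothelium, carried much of that sum at 139 and 130 TPM, followed by Oit3 (33.01 and 36.8 TPM) and Stab1 (32.2 and 22.0 TPM). Of 4 dendritic cell genes 2 were detected. They were Zbtb46 (19.2 and 21.6 TPM), which endothelial and red cell precursors also express, and Flt3, a receptor of early blood progenitors as well, with a mean of 1.31 TPM. Of 4 microglial genes 3 were detected, with P2ry12 at 1.49 and 1.80 TPM, Sall1 at 1.86 and 2.11 TPM and Tmem119, which is not limited to microglia, at 12.9 and 12.5 TPM.

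**Figure D3:**
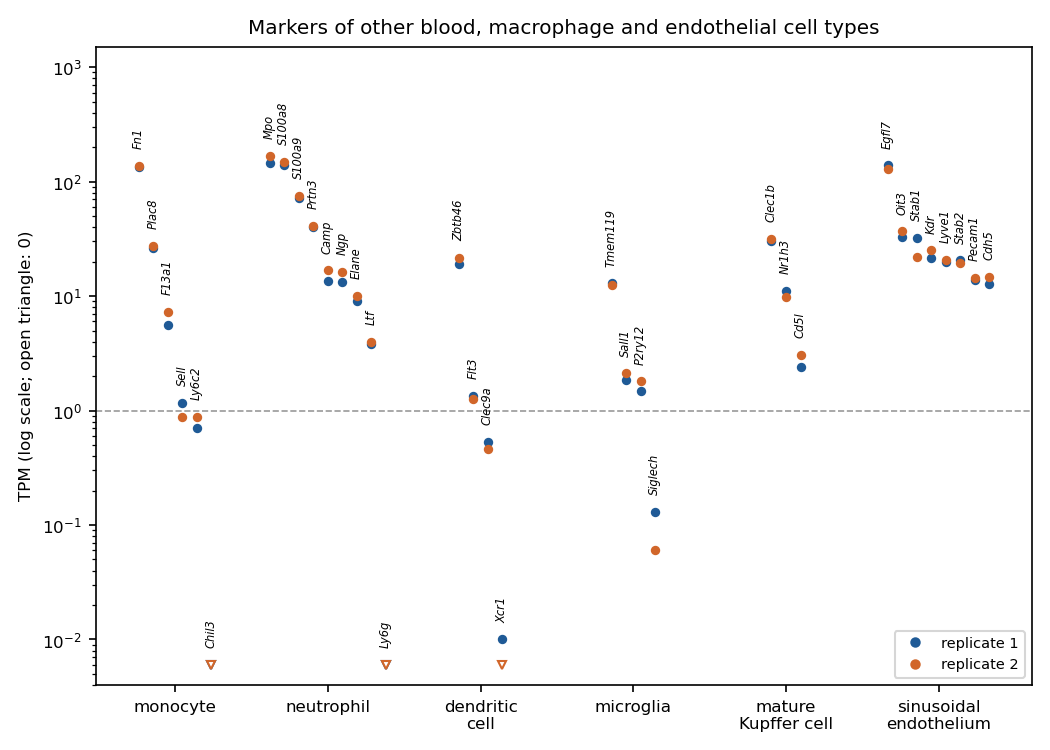
Levels in TPM on a log axis of marker genes of 6 cell types, mature Kupffer cells among them, as points for each library, with values of 0 as open triangles at the bottom, where those of the libraries may cover each other, and the dashed line at 1 TPM. Neutrophil and endothelial genes lie mostly above 10 TPM, whereas Ly6g, Chil3 and Xcr1 lie at or near 0.

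Genes of the erythroblastic island were all detected, 10 of 10, beside 56.6% of protein-coding genes, with a median of 61.9 and 77.5 TPM. Of protein-coding genes averaging 100 or more counts, 11430 of 11522 were detected, so full detection says little for well-expressed genes. Highest was Klf1 (349 and 405 TPM), the factor that in red cell precursors activates adult globin and other genes. Klf1 is also known from island macrophages, where Dnase2a depends on it. Itgb1 (148 and 177 TPM) and Icam4 (99.0 and 105 TPM) encode adhesion proteins of island cells. Vcam1, the macrophage ligand for integrin alpha 4, stood at 50.2 and 51.3 TPM, and Maea, an attachment protein of both macrophages and red cell precursors, at 77.7 and 86.8 TPM. Hmox1, which degrades haem, was at 60.4 and 75.2 TPM, and the iron exporter Slc40a1 at 63.4 and 79.9 TPM. These genes are expressed by several cell types of the liver.

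Differences between the pools were small for most members. In the 31 members averaging at least 20 counts, the median log2 ratio of scaled counts, replicate 1 over replicate 2, was 0.07, beside -0.01 over protein-coding genes. Spic alone was at least 1.5-fold higher in replicate 1, 1 of 31 members, where 4.74% of 15100 genes with that many counts were. It had 86 and 50 counts and a log2 ratio of 0.67, with a 95% exact binomial interval of the counts from 0.15 to 1.2. Cd14 alone was at least 1.5-fold higher in replicate 2, where 2.36% of those genes were. Its 16 and 24 counts gave -0.68, but the interval from -1.71 to 0.28 included 0. These 2 members are near the background share, and both rest on few counts.

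**Figure D4:**
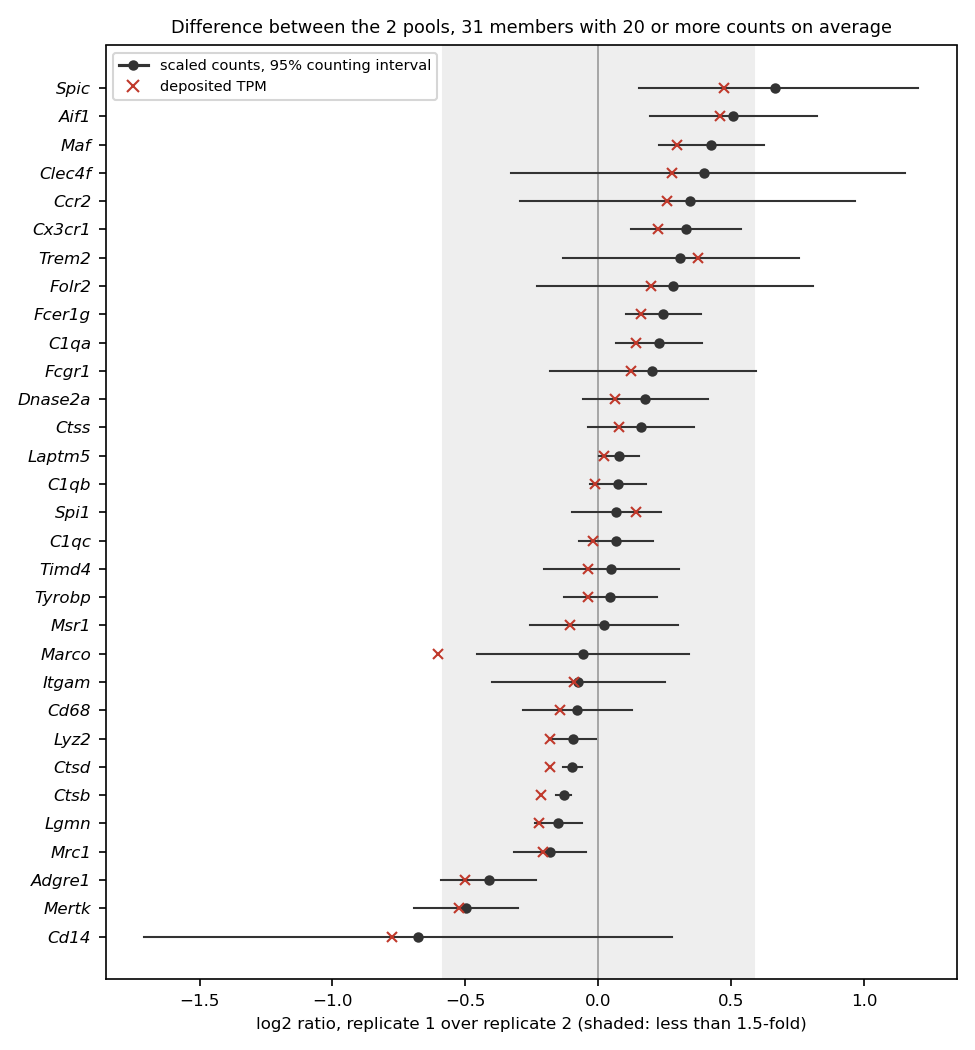
Log2 ratio of replicate 1 over replicate 2 for 31 members; black points are scaled counts with 95% exact binomial intervals for counting error, red crosses the ratio of deposited TPM, and the shaded band is less than 1.5-fold. Spic and Cd14 lie outside the band on scaled counts, and the cross of Marco lies apart from its point.

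Members lay on both sides of 0. The counting interval lay above 0 for 7 of the 31 members, where it did for 18.5% of the 15100 genes. It lay below 0 for 7 members, where it did for 22.3% of genes, and included 0 for 17. Both shares of the members are near the background. Adgre1 was lower in replicate 1, with 468 and 576 counts and a log2 ratio of -0.41 (-0.59 to -0.23), and so was Mertk, with 385 and 503 counts (-0.50, -0.69 to -0.30). Maf was higher in replicate 1, with 525 and 362 counts (0.42, 0.23 to 0.62), as were Cx3cr1, with 459 and 338 counts (0.33, 0.12 to 0.54), and Aif1, with 218 and 142 counts (0.50, 0.19 to 0.82). The intervals of the first pair and of the other 3 lay on opposite sides of 0. Such intervals leave out the spread between preparations. Among protein-coding genes whose mean count was within 2-fold of that of the member, 2.14% were as far apart as Mertk, 3.29% as Adgre1, 4.05% as Maf, 9.59% as Aif1 and 12.03% as Cx3cr1, in either direction. Among the 31 members these shares were the lowest, and the highest was 94.4%, for Msr1. As extremes picked from 31 members, they are not p-values. The C1q genes differed little, with ratios from 0.07 to 0.23. The interval of C1qa (0.06 to 0.39) lay above 0, while those of C1qb and C1qc included 0.

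Marco showed how the unit can decide a difference. On TPM its log2 ratio was -0.60, over 1.5-fold in favour of replicate 2, yet its counts were nearly equal at 110 and 106, and scaled counts gave a log2 ratio of -0.06 (-0.46 to 0.34). In replicate 1 all 110 counts were assigned to a transcript model of 1925 bases. In replicate 2, 6.89 counts were assigned to a model of 370 bases, and these carried 31.9% of the gene's TPM. The TPM difference of this gene therefore turned on the few reads given to a short model.

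Transcript models were compared for 28 members with a mean of 1 TPM or more. Of these, 8 had a single model and 20 had several, and for 19 of the 20 the same model led in both libraries. In 4 of the 20 the main model carried over 90% of the TPM in both libraries. These were Adgre1, C1qc, Fcer1g and Mrc1. Neither count has a share over other genes beside it, so both describe the members only. The main models of Ctsd (58.1 and 58.4%), Laptm5 (57.7 and 60.8%) and Cd68 (70.7 and 72.8%) had lower shares, which were nearly the same in the 2 pools.

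**Figure D5:**
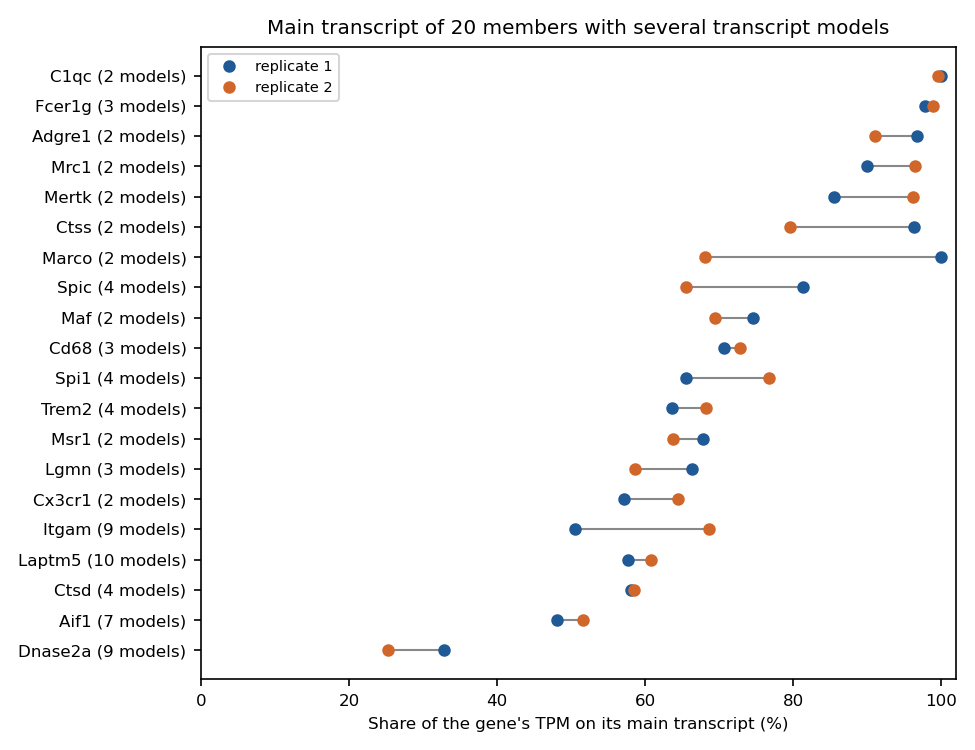
Share of each gene's TPM on its main transcript, in percent, for 20 members with several annotated models; points are the 2 libraries. Most pairs of points lie close together, and the widest gap is that of Marco, at 100% and 68.1%.

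Models without a coding label took a large share in Dnase2a, Aif1 and Cd68. The leading model of Dnase2a was a processed transcript (32.8 and 25.3%), and its protein-coding models together carried 35.7 and 41.6% of the TPM, or 3.43 and 3.83 TPM. Exons of Dnase2a also overlap those of Mast1 on the opposite strand over 1616 of its 5389 exonic bases, although Mast1 itself was at 0.220 and 0.110 TPM. For Aif1 a retained-intron model held 50.3 and 48.4%, and a coding model 48.1 and 51.6%. Which of these led differed between the libraries. In the deposited posterior means the coding model held 25.7 and 22.0%, so the split is uncertain. For Cd68 a processed transcript held 29.3 and 27.2%. The leading model of Itgam (50.6 and 68.6%) has no entry in the annotation used for names, so its class is not given. A gene on the same strand, Gm49368, covers 68.7% of the exonic bases of Itgam, and Gm49369 likewise covers 34.4% of those of Ctsd. Neither has a gene entry of its own in the deposited data. Models bearing their names are counted there under Itgam and Ctsd, with 0 TPM in both libraries.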

How the data were processed

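The authors deposited, for each of 2 libraries, a gene and a transcript table. Per the file headers these hold estimated counts, TPM and FPKM, and the percent of a gene's TPM on each transcript. Per the labels, the assembly was mm10, and the notes deposited beside the tables name GENCODE M4. For aligner, quantifier and strand setting, nothing is given in the sources used here. TPM are relative to all features, control RNAs included. Deposited credibility intervals have no stated level; they held the posterior mean for all members, but the deposited TPM lay outside for 3 members in replicate 1 and 5 in replicate 2.

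Symbols, classes and coordinates came from GENCODE M21 on GRCm38, the same assembly, by Ensembl identifier without version (42462 of 43346 genes matched). Counts of mouse genes were rounded and scaled by TMM (edgeR 4.0.16, R 4.3.3), with DESeq2 1.42.0 size factors as an alternative. Ratios used a pseudocount of 0.5 counts, and pairs 0.1 TPM. Genes were set apart when both libraries gave the same order and intervals overlapped in neither. The ratio step was tested on simulated data. Other steps ran in pandas 2.3.3 and scipy 1.17.1 under Python 3.11.15. The members and lists were chosen with earlier results of these data known. By rule, all 33 members, the 3 highest genes of other lists, pair partners and genes overlapping a member were to be named. Some of these at low levels or without a value are left out, and further genes were named after their values were seen. A gene of these lists is not reported here and was left out of their counts. Alternatives covered other units, thresholds, scalings, filters and leaving out each library.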

Additional observations from a re-analysis of the deposited data

How the results depend on the processing

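The detected members numbered 28, and 18 at a threshold of 5 TPM; under the other alternatives, including either library alone, the number stayed within 1.5 times. Protein-coding models only, an alternative chosen after seeing the data, gave 27. Without replicate 1 or 2 the number lay between 28 and 29. The members' median of 6.84 TPM, the mean over libraries, became 5.00 as FPKM and 11.1 TPM over detected members only. Without 1 library it lay between 5.77 and 7.91 TPM. The 2 members at least 1.5-fold apart became 1 with a pseudocount of 5 counts, and 0 among members averaging at least 100 counts. On TPM they were Marco and Cd14 in place of Spic and Cd14. The 6 separated neighbours became 10 without replicate 1 and 11 without replicate 2, since a single library must pass alone. With estimated counts, in which longer genes collect more reads, 2 ordered pairs turned around, with log2 ratios of -0.64 for Ctsd over Ctsb and 1.02 for Lyz2 over S100a8. Of 208 alternatives for single genes and pairs, 170 moved by less than the spread, 36 moved further and 2 were these reversals. That spread was the SD over members for single genes and the SD between libraries for pairs. Leaving out 1 library cannot move a pair beyond it. A small ratio could change sign within it, as that of Msr1 did, from 0.02 to -0.11 on TPM. No paired analysis was possible because the labels give 1 group.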

Other observations

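Partners of the macrophage machinery outside the 33 genes were also present. Their counts of detected genes stand beside 56.6% of protein-coding genes. Of 13 further lysosomal and phagosomal genes 11 were detected, with a median of 48.7 and 54.2 TPM. They were led by the membrane protein Lamp1 (189 and 224 TPM), the protease inhibitor Cst3 (171 and 168 TPM) and the cathepsin Ctsz (121 and 130 TPM), all broadly expressed. Gpnmb (21 and 10 counts), a gene of lipid-laden macrophages, and Dnase1l3 (67 counts in each library), a secreted nuclease, were under the detection level. Of 12 receptor partners 10 were detected. The leading ones were the phosphatase Inpp5d (23.1 and 24.7 TPM), Fcgr3 and Sirpa (20.3 and 23.5 TPM), which encodes an inhibitory receptor of phagocytes that reads CD47. Itgax, an integrin chain of dendritic cells and some macrophages, had 14 and 8 counts.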
